A study of Saccharomyces cerevisiae with 8 samples.

Results

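The genes of arginine biosynthesis in budding yeast were taken by name: ARG1, ARG2, ARG3, ARG4, ARG5,6, ARG7, ARG8, CPA1 and YOR302W, the short reading frame upstream of CPA1. All 9 were found among the 6569 genes of the deposited table, and all 9 passed the filter on low signal. They were picked with earlier results from all 8 libraries in view, among them a high signal after 60 min of rapamycin. Their values in those libraries are therefore given as a description, with no p-value of their own, and the counts of calls below are to be read in the same way.

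Poly(A) RNA was sequenced from 8 cultures grown in YPD, a rich glucose medium, to an optical density of 0.5. BY4741, a MATa laboratory strain that carries ura3-delta-0, met15-delta-0, his3-delta-0 and leu2-delta-0, was grown at 30 °C. Cultures received no drug or rapamycin at 200 ng/mL, which inhibits the growth kinase complex TORC1, for 10 or 60 min, with 2 biological replicates in each of these 3 groups. The other set was grown at 26 °C, with 1 library per strain. It held a MATalpha strain with prp4-1, a spliceosomal mutation, and with his3-delta-200, ura3-52, ade2- and a mutated leu2, and a prp4-1 strain with k-HIS3:pGAL1-IFH1, labelled as having the ribosomal protein gene activator IFH1 lowered by about 50%. That level is the labels' own; the markers of the k-HIS3 strain other than HIS3 and prp4-1 are not listed.

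Arginine is made from glutamate. Acetylated intermediates are carried through a cycle in the mitochondrion to ornithine, which leaves for the cytosol, takes up carbamoyl phosphate to become citrulline, and is turned into arginine through argininosuccinate. Yeast turns genes of this pathway up through Gcn4, the activator of amino acid biosynthesis. It turns some of them down when arginine is plentiful through Arg80, Arg81, Arg82 and Mcm1. CPA1 is also held back after transcription: the attenuator peptide encoded by YOR302W stalls ribosomes in the leader of the CPA1 mRNA when arginine is high, and the stalled mRNA becomes a target of nonsense-mediated decay.

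Gcn4 is known to bind TGANTCA, so that motif was looked for on both strands of the 250 bases before each reading frame (build R64, sequence and starts from RefSeq). It lay before 4 of the 9 genes, or 44.4%, and before 344 of 6001 protein-coding genes, or 5.73%. The matches are shown with 10 bases on each side, 5′ to 3′ on the strand of the gene and with the motif in capitals, because all 4 have the same letters.
ARG5,6 (chrV:295177-295203, plus strand): cttatccgaaTGACTCAgtctacatca
ARG8 (chrXV:58569-58595, plus strand): gctcgctatgTGACTCActtaaagtac
ARG7 (chrXIII:396515-396541, minus strand): acaggtaggaTGACTCActgcgtaatt
ARG4 (chrVIII:141565-141591, minus strand): agtagatgaaTGACTCActttttggat
The shorter string TGACTC, which every one of these matches also contains, lay before 6 of the 9 genes and before 6.25% of all genes. ARG1, ARG3 and CPA1 had neither string in this window. For CPA1 the window covers YOR302W and part of the common leader, and the window before YOR302W held TGACTC.

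The stretches from 250 to 101 bases before ARG4 and ARG1 are shown because ARG4 had the largest change of the 9 genes at 60 min, and ARG1 the only increase at 10 min and the lowest ratio between the prp4-1 strains. Capitals again mark TGANTCA, which the ARG1 stretch does not hold.
ARG4 (chrVIII:141503-141652, minus strand): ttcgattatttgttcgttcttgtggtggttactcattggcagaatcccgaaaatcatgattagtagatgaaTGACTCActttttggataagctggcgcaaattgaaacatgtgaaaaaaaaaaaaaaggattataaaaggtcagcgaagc
ARG1 (chrXV:218961-219110, plus strand): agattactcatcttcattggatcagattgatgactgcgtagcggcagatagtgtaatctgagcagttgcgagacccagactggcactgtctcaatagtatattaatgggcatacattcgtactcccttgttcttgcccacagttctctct

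The values are the authors' scaled signal per gene. Its total ran from 2025663 to 3319861 per library, and between 6308 and 6438 of the 6569 genes were above 0. How many reads lie behind these values is not known, so no counting interval is given. Signal did not grow steadily with gene length: in 4 equal groups of genes by length its untreated median was 15.1, 179, 128 and 77.1, from the shortest to the longest. It was thus far lower in the shortest group than in the next, and fell from there on. Since the sources used here do not say whether it is a value per length, levels of different genes are not ranked. The arginine and further genes are not compared in level between the wild-type and prp4-1 sets. The mating-type markers followed the labels of BY4741 and of the MATalpha prp4-1 strain, and prp4-1 pGAL-IFH1 lay with the latter. The summed signal of 5 a-cell genes was 3219 to 5626 in the wild type and 105 to 151 in the prp4-1 set, and that of 4 alpha-cell genes 45.9 to 92.3 and 28535 to 39544. LEU2 and MET17 (MET15) were at most 1.84 and 0.915 in the wild-type libraries, and URA3 was listed at 0 in all 6.

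In wild type, 8 of the 9 genes were lowest at 10 min and highest at 60 min of rapamycin, and ARG1 was lowest in untreated cells. In no gene of the 9 did the libraries of any pair of groups overlap. Such separation was common among all genes tested. At 10 min both libraries lay below both untreated ones for 40% and above them for 36.8%, and at 60 min above them for 43.9%. The share of all genes apart in every pair of groups was not counted. Relative to untreated cells, the 10 min log2 changes ran from -1.98 to 0.23 and the 60 min changes from 0.58 to 3.003 (log2 of scaled signal plus 1).

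**Figure D1:**
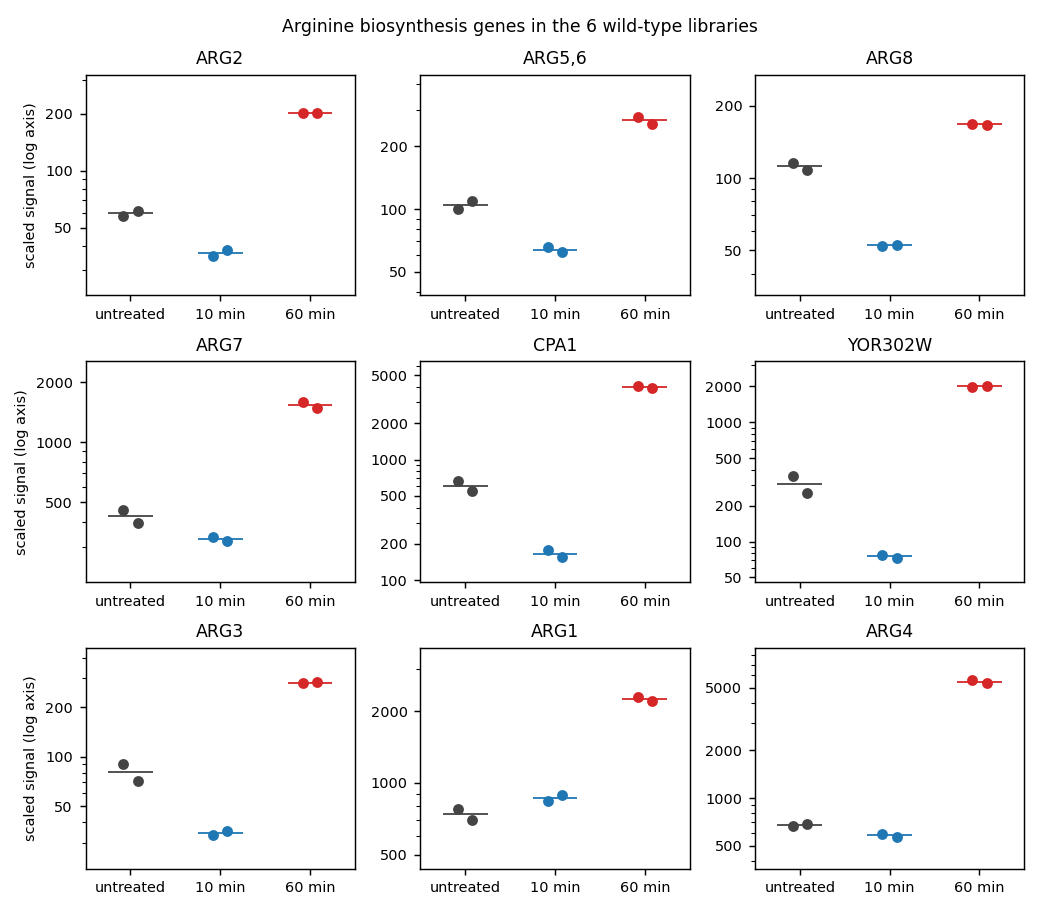
Scaled signal (log axis, a scale for each gene) of the 9 arginine biosynthesis genes in wild-type libraries, with 2 points and a bar at the mean for untreated cells and for 10 and 60 min of rapamycin. The 60 min points lie highest in every panel, and the 10 min points lie lowest in every panel except ARG1.

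The enzymes of the mitochondrial acetyl cycle were lower at 10 min and higher at 60 min, each to its own extent. ARG2, whose acetylglutamate synthase opens the pathway (chromosome X, 306132 to 307856), had a signal of 57.9 and 61.4 in the untreated libraries, 35.2 and 38.0 at 10 min and 201.2 and 200.5 at 60 min. The 10 min libraries were both low and the 60 min libraries both high, with log2 changes against untreated of -0.69 (SE 0.0747) and 1.74 (SE 0.0747). ARG5,6, which encodes the acetylglutamate kinase and the reductase that follows it (chromosome V, 295410 to 298001), stood at 100.4 and 109.9 untreated, 65.7 and 61.9 at 10 min and 276 and 256 at 60 min. Its changes were -0.71 (SE 0.0797) and 1.33 (SE 0.0797), close to ARG2 at 10 min and below it at 60 min.

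ARG7, whose ornithine acetyltransferase recycles the acetyl group and releases ornithine (chromosome XIII, 395054 to 396379), gave 460.1 and 394.8 untreated, 334 and 320.1 at 10 min and 1587 and 1484 at 60 min. It was lower at 10 min by little, at -0.38 (SE 0.0898), and 3.59-fold higher at 60 min. ARG8, the acetylornithine aminotransferase gene (chromosome XV, 58759 to 60030), had the opposite balance. Its signal was 115.0 and 108.5 untreated, 52.2 and 52.9 at 10 min, and only 168 and 166 at 60 min. ARG8 thus stood at 0.470 of the untreated mean at 10 min and had the smallest gain of the 9 genes at 60 min, a log2 change of 0.58 (SE 0.0677).

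CPA1 and YOR302W had the widest swing. CPA1 encodes the small subunit of the arginine-pathway carbamoyl phosphate synthetase (chromosome XV, 882899 to 884134). Its signal was 660.2 and 543.8 untreated, 177 and 155 at 10 min and 4073 and 3917 at 60 min. The libraries at 10 min were far below and those at 60 min far above untreated cells, with log2 changes of -1.85 (SE 0.109) and 2.73 (SE 0.109), and the mean at 60 min was 24.1-fold that at 10 min. YOR302W encodes the 25-residue attenuator peptide in 78 bases (chromosome XV, 882765 to 882842) that end 56 bases before CPA1. It stood at 355 and 255 untreated, 77.2 and 73.4 at 10 min and 1982 and 2017 at 60 min.

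These frames lie on the same transcript, so YOR302W is no independent measure of CPA1, and reads that span both could count for each. The ratio of CPA1 to YOR302W signal was 1.86 and 2.13 in untreated cells, 2.29 and 2.11 at 10 min and 2.06 and 1.94 at 60 min. The untreated ratios overlapped those at each time, and both 10 min ratios lay above both 60 min ratios. While CPA1 itself moved 24.1-fold between 10 and 60 min the ratio stayed between 1.86 and 2.29 over the 6 libraries. The ratio in the prp4-1 library was 2.04 and in prp4-1 pGAL-IFH1 it was 2.23. These are signals of RNA, and translation of either frame was not measured.

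**Figure D2:**
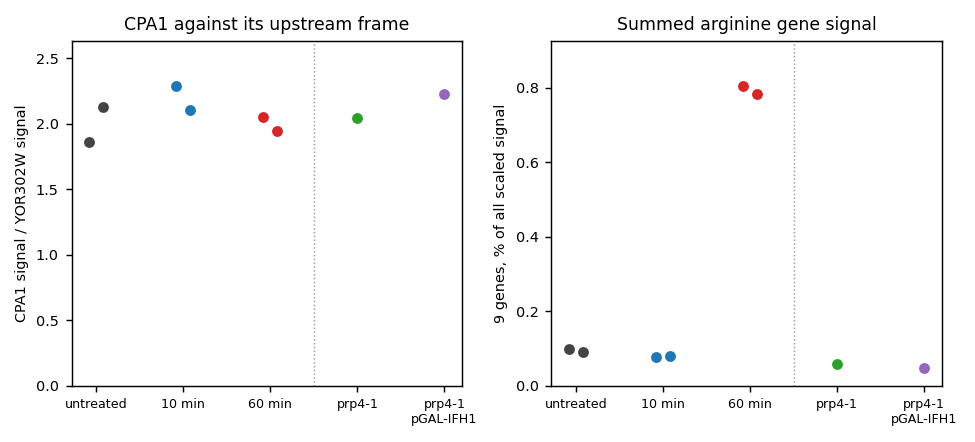
Left, the ratio of CPA1 to YOR302W signal in each of the 8 libraries; right, the summed signal of the 9 genes as a percentage of all scaled signal in each library. Each point is 1 library, and the dotted line parts the wild-type from the prp4-1 set. The ratio lies between 1.86 and 2.29 throughout, and within the wild-type set the share is highest in both 60 min libraries.

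The cytosolic steps from ornithine to arginine differed from each other at each time. ARG3, the ornithine carbamoyltransferase gene (chromosome X, 268799 to 269815), had a signal of 90.4 and 71.0 untreated, 33.3 and 35.4 at 10 min and 279 and 285 at 60 min. It was low at 10 min, at -1.20 (SE 0.112), and high at 60 min, at 1.80 (SE 0.112). ARG1, the argininosuccinate synthetase gene (chromosome XV, 219211 to 220473), gave 776 and 698.0 untreated, 843 and 889.7 at 10 min and 2297 and 2203 at 60 min. Here the 10 min libraries lay above untreated cells by a log2 change of 0.23 (SE 0.0810), and the 60 min change was 1.61 (SE 0.0810).

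ARG4, whose argininosuccinate lyase makes arginine itself (chromosome VIII, 140011 to 141402), stood at 668.2 and 688.8 untreated, 591.0 and 570.2 at 10 min and 5548 and 5348 at 60 min. Its change at 10 min was small, at -0.22 (SE 0.0703), and its change at 60 min, 3.003 (SE 0.0703), was the largest of the 9. ARG4 made up 21.9% ± 2.23 (SD, n = 2) of the summed signal of the 9 genes in untreated cells and 33.7% ± 0.0820 (SD, n = 2) at 60 min. That sum holds both frames of the CPA1 transcript, and whether its signals are values per length is not known. The 9 genes together held 0.0954% ± 0.00558 of all scaled signal untreated, 0.0786% ± 0.00171 at 10 min and 0.795% ± 0.0154 at 60 min (SD, n = 2 each). Total scaled signal itself was lowest at 60 min, at 2031454 ± 8189 against 3256515 ± 70935 untreated (SD, n = 2 each). The summed signal of the 9 genes was 3107 ± 249 untreated and 16143 ± 379 at 60 min (SD, n = 2 each). The higher share at 60 min thus holds both a higher sum and a lower total.

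**Figure D3:**
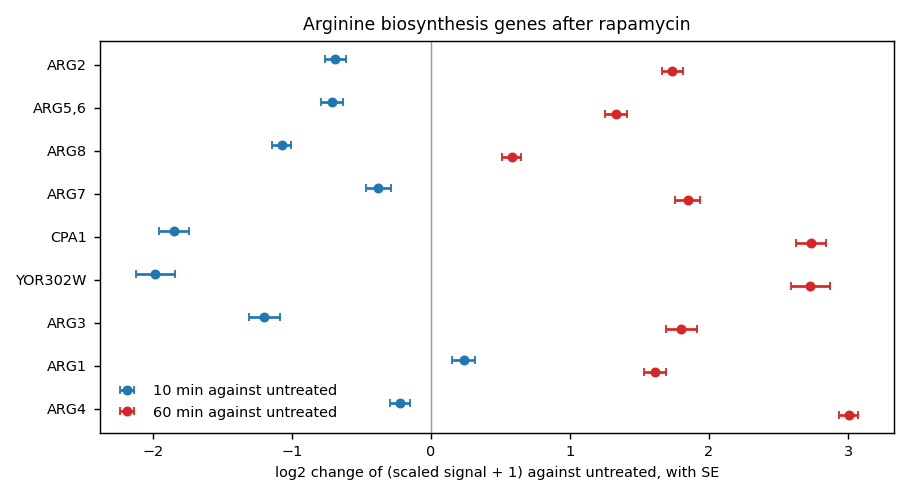
Log2 change of scaled signal plus 1 against untreated cells, with the standard error from the fit of all 6 wild-type libraries, for each of the 9 genes at 10 min (blue) and 60 min (red). Blue points lie from -1.98 for YOR302W to 0.23 for ARG1, and red points from 0.58 for ARG8 to 3.003 for ARG4.

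At 10 min against untreated, limma's moderated test across 6127 genes, at a Benjamini-Hochberg adjusted p under 0.05, called 8 of the 9 genes lower and 1, ARG1, higher. Of all genes tested, 30.2% were called lower and 26.8% higher, and both treated libraries lay below both untreated ones for 40% and above them for 36.8%. The median log2 change of the 9 was -0.71, beside -0.02 over all genes. The calls of ARG1 and ARG4 were lost when any library other than the untreated library numbered 21 was left out, with log2 changes of 0.16 to 0.27 and of -0.25 to -0.20, and that of ARG7 when the 10 min library numbered 25 was. Scaling each library to its total signal shifted the median of all genes by 0.21 and put ARG4 at -0.01 and ARG7 at -0.17, which left 6 genes called lower.

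At 60 min against untreated, all 9 were called higher, as were 38.6% of all genes, and libraries of the groups were apart in that direction for 43.9%. The median was 1.80, beside -0.0042 over all genes. Total-signal scaling raised the median of all genes by 0.66, and under it the 9 lay between 1.25 and 3.68. At 60 against 10 min, all 9 were called higher, as were 35.4% of all genes, with libraries apart in that direction for 44.8%. The 60 against 10 min changes ran from 1.38 for ARG1 and 1.65 for ARG8 to 4.59 for CPA1 and 4.71 for YOR302W, with a median of 2.42 beside 0.02 over all genes. The comparisons with untreated cells share the same 2 untreated libraries.

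Along the 6 libraries, each gene was set against the mean profile of the other 8 (Pearson's r of log2 signal, a description over libraries that fall into 3 groups). The r was 0.997 for ARG2, 0.995 for ARG5,6, 0.992 for both ARG3 and CPA1, 0.988 for YOR302W, 0.986 for ARG7 and 0.958 for ARG4. It was lowest for ARG8, at 0.917, and ARG1, at 0.888. CPA1 and YOR302W lie on the same transcript and each was part of the other's mean, so neither r is independent of the other frame. The genes nearest to the mean profile of the 9, among 5573 others with a mean signal of at least 10, were CDC13 (r = 1.000), YBR063C (0.999), the small nucleolar RNA gene snR67 (0.999), LYS2 of lysine synthesis (0.999) and HEH2 (0.999). Such an r takes no account of size. CDC13 went from 29.7 ± 0.303 untreated to 25.8 ± 0.0545 at 10 min and 39.7 ± 0.0133 at 60 min, and LYS2 from 126 ± 2.97 to 87.4 ± 5.36 and 282 ± 0.9503 (scaled signal, mean ± SD, n = 2). In all, 320 genes had an r over 0.95 and 59 over 0.99.

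A further 21 genes of arginine metabolism, chosen for their roles but with earlier results of these data known, were tested in the same fit. Their adjusted p-values are to be read with that limit. At 10 min 9 rose and 9 fell, and at 60 min 13 rose and 8 fell, beside 38.6% and 38.5% of all genes at 60 min and the shares given above at 10 min.

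ORT1, the carrier that brings ornithine out of the mitochondrion, did not dip. It stood at 133 and 156 untreated, 188 and 205 at 10 min and 591 and 560.1 at 60 min, a rise of 0.44 (SE 0.0935, limma adjusted p = 0.00502) and then of 1.99 (SE 0.0935, limma adjusted p = 5.1e-07). At 10 min it thus lay on the side of ARG1, away from the other 8.

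The regulator genes moved in different directions. ARG80 fell at 10 min by 1.16 (SE 0.0909, limma adjusted p = 2.38e-05) and was higher than untreated at 60 min by 0.70 (SE 0.0909, limma adjusted p = 0.000189). ARG81 fell by 0.28 and then lay 0.46 above untreated, and GCN4 fell by 0.28 and then lay 0.31 above (limma adjusted p = 0.0329 at 10 min and 0.0146 at 60 min). MCM1, which also serves mating and the cell cycle, fell at 10 min, at -0.80, and at 60 min, at -1.42. ARG82, an inositol polyphosphate kinase, fell at 60 min, at -1.58, while its 10 min value of -0.20 did not pass. The 10 min calls of GCN4 and ARG81 ended under total-signal scaling, at -0.06 and -0.07. GCN4's was also lost without the untreated library 21, the 10 min library 25 or either 60 min library, and at 60 min without library 23; ARG81's was lost without the 10 min library 22. GCN4 protein is set largely by translation, which these libraries do not measure.

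Genes that supply the precursors rose early, apart from 1. The glutamate dehydrogenase gene GDH1 rose from 1563 ± 85.3 to 6521 ± 493 at 10 min and the glutamine synthetase gene GLN1 from 2422 ± 143 to 11528 ± 395 (scaled signal, mean ± SD, n = 2), and at 60 min they were at 4552 ± 186 and 7414 ± 316. GDH3, a second glutamate dehydrogenase gene, was at 15.9 ± 1.45, 46.7 ± 5.67 and 439 ± 34.4, a log2 change of 4.70 at 60 min (SE 0.111, limma adjusted p = 1.48e-08). The glutamate synthase gene GLT1 rose by 0.37 and then 2.03. URA2, whose own carbamoyl phosphate feeds pyrimidine synthesis, fell by 1.09 at 10 min (SE 0.110, limma adjusted p = 9.99e-05) and stood at -0.78 at 60 min, a call that ended under total-signal scaling at -0.11. The deposited table gives URA2 the span of the whole gene, while the deposited gene models hold only 152 exon bases under that name, and the sources used here do not say which of these its signal covers.

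Both breakdown genes, CAR1 and CAR2, and 2 of the 3 permease genes, CAN1 and GAP1, rose at each time. The arginase gene CAR1 had a signal of 363 and 373 untreated, 1904 and 1869 at 10 min and 1874 and 1977 at 60 min. It rose by 2.36 at 10 min (SE 0.0697, limma adjusted p = 1.7e-07) and 2.38 at 60 min, with no call between the times (log2 0.03, limma adjusted p = 0.725), although total-signal scaling gave 0.49 there and a call. The ornithine transaminase gene CAR2 rose by 1.52 and 1.20, and the arginine permease gene CAN1 by 2.37 and 1.85. GAP1, the general amino acid permease gene, was at 6.71 at each time. ALP1, a basic amino acid permease gene, had a signal of at most 6.35 in wild type, and only its 60 min change of 0.57 passed (limma adjusted p = 0.0318), a call lost without the untreated library 24 or either 60 min library. Under total-signal scaling its 10 min change was called too, at 0.58.

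The arginyl-tRNA synthetase gene YDR341C fell by 0.69 at 10 min and stood at -0.75 at 60 min, or -0.07 under total-signal scaling. SPE1, which turns ornithine to polyamines, was at 0.02 at 10 min (limma adjusted p = 0.817) and -0.42 at 60 min. Under total-signal scaling these were 0.24 and 0.26, both called higher. The nonsense-mediated decay genes NAM7, NMD2 and UPF3 fell at 10 min, at -0.65, -0.73 and -0.88, and were lower at 60 min, at -0.65, -0.45 and -0.66. The direction at 60 min of all 3 turned under total-signal scaling, to 0.02, 0.22 and 0.01.

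**Figure D4:**
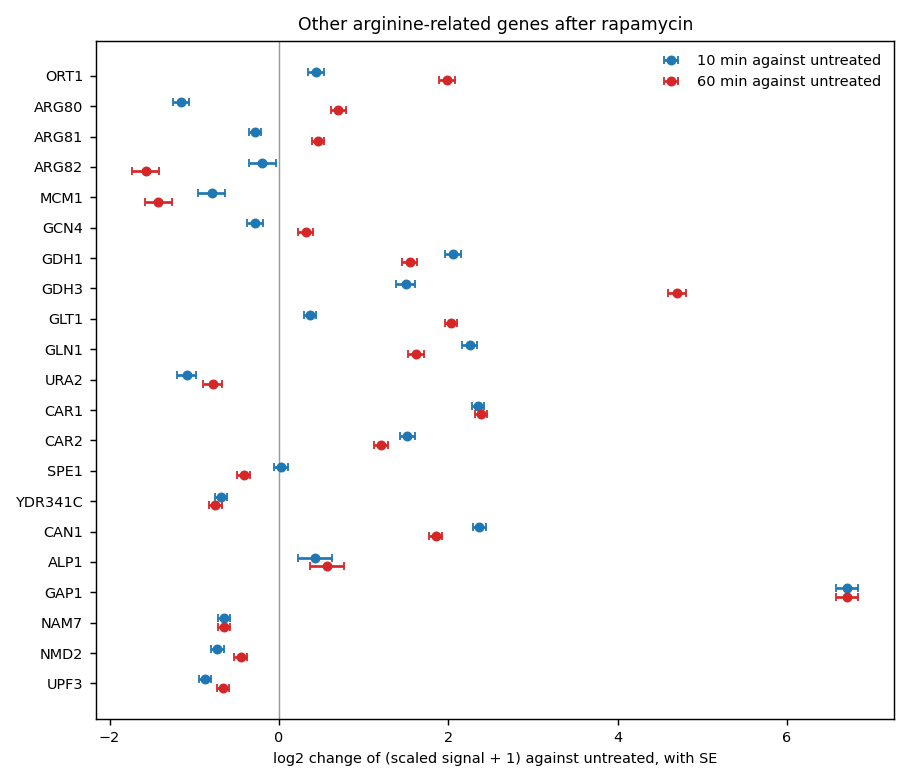
Log2 change of scaled signal plus 1 against untreated cells, with standard errors, for 21 other genes of arginine metabolism at 10 min (blue) and 60 min (red). ARG80, ARG81 and GCN4 lie left of 0 at 10 min and right of 0 at 60 min, and CAR1, CAN1 and GAP1 lie right of 0 at each time.

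The prp4-1 pair asked what a lower level of IFH1 does. IFH1 signal was 154 in prp4-1 and 86.1 in prp4-1 pGAL-IFH1, a ratio of 0.559. With 1 library per strain there is no test and no replicate check. The libraries also differed in genes that mark strain background. URA3 was at 111 in prp4-1 and listed at 0 in prp4-1 pGAL-IFH1, MET17 was at 1495 and listed at 0, and LEU2 was at 1386 and 622. ADE2 was at 159 and 231. The prp4-1 strain had signal for URA3, LEU2 and ADE2 although it is labelled as mutated in each, so signal alone does not give the allele. The labels give no met15 or ura3 allele for the pGAL-IFH1 strain, and a lowered IFH1 and another strain background cannot be told apart in what follows.

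ARG1 differed far more than any other of the 9 genes in this pair. Its signal was 151 in prp4-1 and 14.4 in prp4-1 pGAL-IFH1, which is 10.5-fold lower, and 1.03% of the 6222 genes with a ratio had a lower one. ARG4 went from 404 to 146 and ARG3 from 33.8 to 15.6, so the steps from ornithine to arginine all stood lower. In the acetyl cycle ARG7 was at 205 and 104, ARG2 at 61.9 and 39.0, and ARG5,6 at 69.9 and 53.1.

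The remaining genes did not share that direction. ARG8 was higher, at 86.5 and 124, a ratio of 1.43. CPA1 was at 607 and 644 and YOR302W at 297 and 289, so both frames were near a ratio of 1. Over 1.5-fold lower were 5 of the 9 genes, as were 21.5% of all genes, and over 1.5-fold higher were 0, as were 18.2% of all genes. The median log2 ratio of the 9 was -0.65, beside 0.00 over all genes.

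**Figure D5:**
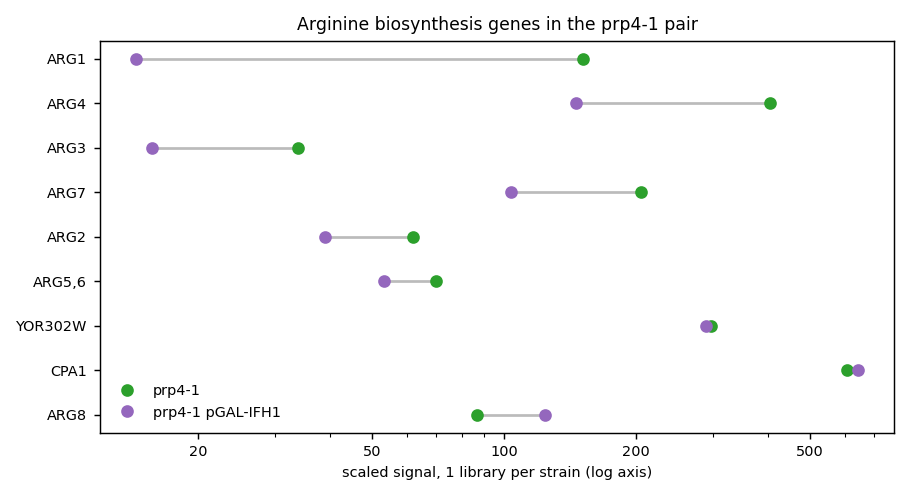
Scaled signal (log axis) of the 9 arginine biosynthesis genes in the prp4-1 library (green) and the prp4-1 pGAL-IFH1 library (purple), joined by a line, with 1 library per strain and no error. ARG1 has the longest line, from 151 to 14.4, while both points of CPA1 and of YOR302W nearly meet.

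Of the 21 further genes, 7 were over 1.5-fold lower in prp4-1 pGAL-IFH1, beside 21.5% of all genes, and 4 were over 1.5-fold higher, beside 18.2%. Both breakdown genes and 3 of the 5 supply genes were on the low side: GDH3 was at 18.3 and 3.71, CAR2 at 85.5 and 25.4, CAR1 at 337 and 132, GLN1 at 2629 and 1066 and GDH1 at 2455 and 1025. The other supply genes were at 77.9 and 98.8 for GLT1, a ratio of 1.27, and at 233 and 204 for URA2. ARG82 and GAP1 were also on the low side. The regulator genes ARG80 (112 and 180) and ARG81 (90.0 and 161) were on the high side, together with YDR341C and ALP1. GCN4 was at 5252 and 4190, a ratio of 0.798.

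Set side by side, the genes that stood out were not the same in rapamycin-treated wild type and in the prp4-1 pair. CPA1, with a mean ratio of 6.64 at 60 min and 0.275 at 10 min of rapamycin, was at 1.06 in the pair. ARG1, with 3.05 and 1.18, was at 0.0951. The pair shares no library with the wild-type comparisons, and the difference between the sets was not tested.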

How the data were processed

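The deposited gene table holds unscaled and scaled signal for 6569 genes. TopHat and Bowtie and the build sacCer3 are named in the submitters' processing notes; versions, the summary per gene and the choice of scaling are not given in the sources used here. Per the labels, libraries were strand-specific (dUTP) and made from poly(A) RNA. The scaled signal was used as deposited, and 8 columns of unscaled signal were not used. Coordinates are from the deposited gene models (other: exon positions counted from 1), which for the 9 genes equal those of the R64 reference. Sequences are from the RefSeq R64 genome.

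Columns were assigned to groups by name. Their names give a library number and no replicate. The 6 wild-type libraries were fitted together in R 4.3.3 by limma 3.58.1 (variance trend on, group the only term) on log2 of scaled signal plus 1, over 6127 genes whose mean was 1 or more. Adjusted p-values are over all of them, and a gene was called under 0.05. The prp4-1 pair has ratios only, of signal plus 1 on the log2 scale, for 6222 genes. The fit was checked on simulated data. The genes and lists were chosen with earlier results of these data known. Named are the 9 genes, the 21 further genes and the 5 nearest profiles. Scaling, pseudocount, filter, trend, the groups in the fit and the libraries were varied. A further gene of the list drawn up for the other genes of arginine metabolism is not reported here.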

Additional observations from a re-analysis of the deposited data

Results flagged for a closer look

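Among the 9 arginine genes and the 21 further genes, 11 had the 10 and 60 min libraries on opposite sides of the untreated ones. In these, every library was lower at 10 min and higher at 60 min. Of all 6127 genes tested, both libraries lay below both untreated ones at 10 min for 40%, and above them at 60 min for 43.9%. The share of all genes with both was not counted, so how common this order is was not tested. For the 8 arginine genes among the 11 the order is a description of the values that chose them, and the difference was not tested. Their log2 changes at 60 against 10 min were 2.42 for ARG2, 2.04 for ARG5,6, 1.65 for ARG8, 2.23 for ARG7, 4.59 for CPA1, 4.71 for YOR302W, 3.001 for ARG3 and 3.23 for ARG4. ARG1 is not one of them. The further genes with this order were ARG80, ARG81 and GCN4, at 1.86, 0.74 and 0.59. The early dip depends in part on the scaling. Under total-signal scaling the 10 min changes of ARG4, ARG7, ARG81 and GCN4 were -0.01, -0.17, -0.07 and -0.06, none of them called. The rest of the 11 stayed called lower at 10 min under it. Whether the libraries stay apart under that scaling was not counted. The order itself puts 60 min above 10 min, so no test of that difference is given.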

How the results depend on the processing

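The counts of arginine genes called at 60 min and at 60 against 10 min were 9 higher and 0 lower under all alternatives run (scaling, pseudocount, filter, trend, groups in the fit, each library left out). At 10 min the 1 gene called higher, ARG1, was 0 without the variance trend and 0 with only the compared groups in the fit, and leaving out a library gave 0 to 1 higher and 6 to 8 lower. Total-signal scaling left 2 of the 21 further genes lower at 60 min, and 1 lower and 14 higher at 60 against 10 min. In the prp4-1 pair it left 1 arginine gene over 1.5-fold higher and put YOR302W at 0.0743. This scaling raises the ratios of the pair. ARG2, 1.59-fold lower as deposited, lies near the limit, so the count of lower genes may fall under it. Without YOR302W the summed share of signal was 0.0860% untreated, 0.0759% at 10 min, 0.696% at 60 min, 0.0488% in prp4-1 and 0.0372% in prp4-1 pGAL-IFH1. All genes split into 2560 higher and 1149 lower at 10 min, 4002 and 1121 at 60 min and 3780 and 908 at 60 against 10 min under total-signal scaling, and 1645 and 1848, 2365 and 2360, and 2168 and 2069 as deposited.

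Directions that turned under total-signal scaling were ARG82 at 10 min (0.0156), SPE1 (0.26), NAM7 (0.0241), NMD2 (0.223) and UPF3 (0.0124) at 60 min, and CAR2 (0.15), SPE1 (0.0237), YDR341C (0.40), GAP1 (0.46) and NAM7 (0.46) at 60 against 10 min. GAP1 was at 0.000303 there with median-of-ratios scaling. Leaving out a library moved SPE1 at 10 min between -0.0641 and 0.111 and, at 60 against 10 min, CAR1 between -0.00922 and 0.0677, GAP1 between -0.0642 and 0.0634 and NAM7 between -0.0435 and 0.0416. The cause was not tested. The columns carry no replicate number that would pair libraries across groups. A replicate block taken from the run of library numbers (21 to 23, 24 to 26), chosen after seeing the data, left 0 arginine genes called higher at 10 min (ARG1, limma adjusted p = 0.0575) and moved no other count of the arginine or further genes. Libraries of a run deviated together with correlations of -0.115, -0.0834 and 0.156, so the numbers are not shown to pair them. Where a left-out library leaves a group with 1, that library is assumed to vary like the others. With 2 libraries a group and an unknown number of reads, low signals such as ALP1's limit what can be read from them. The p-values cover only the spread between these cultures.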
